A study of Mus musculus with 2 samples.

Results

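The genes described here encode the pore-forming alpha1 subunits of the voltage-gated calcium channels. They are Cacna1c and Cacna1d of the CaV1 family, Cacna1a, Cacna1b and Cacna1e of the CaV2 family, and Cacna1g, Cacna1h and Cacna1i of the CaV3 family. These 8 genes were taken by symbol from the 55536 annotated genes measured, and all 8 were detected, at a TPM (the deposited level, scaled to transcript length and library) of at least 1 in both animals. Total RNA of the left cerebral cortex of 2 male mice was sequenced. The mice came from 5xFAD crossed with CAST, were 8 to 10 months old and are labelled biological replicates 1 and 2. The 5xFAD line carries mutant human transgenes of amyloid precursor protein and presenilin 1, driven by the neuronal Thy1 promoter, and CAST is a wild-derived inbred strain. Mice lacking the transgenes were not analysed here, and there is no contrast between groups, only the level of each gene and its difference from one animal to the other.

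A voltage-gated calcium channel opens when the membrane is depolarised and lets calcium into the cell. The alpha1 subunit alone forms the pore, the voltage sensors and the gate, from homologous repeats, called I to IV, of membrane segments. The CaV1 channels carry the long-lasting L-type current, which in neurons couples activity to gene expression. The CaV2 channels carry the P/Q-type, N-type and R-type currents, and at nerve terminals the first pair trigger transmitter release. The CaV3 channels open at low voltage, carry the T-type current and shape burst firing, and unlike the other families they do not need the beta and alpha2delta subunits.

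Several of the pore genes choose between paired exons of equal length, of which a transcript holds one or the other. The exons below carry the splice choices reported further down. All sequences run 5′ to 3′ on the strand of the gene and come from the GENCODE transcripts of the mm10 annotation, so they are those of the C57BL/6J reference and not of the CAST allele. In the CaV2 genes the paired exons are 97 bases long and encode part of the EF-hand region of the carboxyl terminus. Capitals mark the bases at which the exons of a pair differ. Cacna1a lies on the plus strand, and Cacna1b and Cacna1e lie on the minus strand.
Cacna1a upstream exon, chr8:84614695-84614791: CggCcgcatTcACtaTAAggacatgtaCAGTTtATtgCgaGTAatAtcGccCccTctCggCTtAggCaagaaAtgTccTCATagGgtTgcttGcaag
Cacna1a downstream exon, chr8:84615574-84615670: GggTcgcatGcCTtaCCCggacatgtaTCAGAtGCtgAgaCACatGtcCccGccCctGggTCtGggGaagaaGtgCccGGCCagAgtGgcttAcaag
Cacna1b upstream exon, chr2:24626823-24626919: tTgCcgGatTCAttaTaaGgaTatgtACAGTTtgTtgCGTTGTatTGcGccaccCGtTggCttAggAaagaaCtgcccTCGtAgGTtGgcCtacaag
Cacna1b downstream exon, chr2:24625238-24625334: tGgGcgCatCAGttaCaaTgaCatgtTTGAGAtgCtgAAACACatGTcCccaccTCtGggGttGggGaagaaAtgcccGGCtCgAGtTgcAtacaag
Cacna1e upstream exon, chr1:154417950-154418046: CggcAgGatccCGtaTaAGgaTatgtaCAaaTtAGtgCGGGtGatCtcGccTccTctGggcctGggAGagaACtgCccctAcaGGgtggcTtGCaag
Cacna1e downstream exon, chr1:154416061-154416157: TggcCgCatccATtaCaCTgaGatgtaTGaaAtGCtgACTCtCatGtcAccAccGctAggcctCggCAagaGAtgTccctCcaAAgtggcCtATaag
The exons of a pair were identical at 61.9% of their positions in Cacna1a, 58.8% in Cacna1b and 62.9% in Cacna1e. Across genes the same position in the pair was more alike, with 79.4% of bases identical between the downstream exons of Cacna1a and Cacna1b and 75.3% between their upstream exons.

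In the CaV1 genes the paired exons are 104 bases long and encode the last membrane segment of repeat I, which lines the pore. Both genes lie on the minus strand, and capitals again mark the bases that differ within a pair.
Cacna1c upstream exon, chr6:118742265-118742368: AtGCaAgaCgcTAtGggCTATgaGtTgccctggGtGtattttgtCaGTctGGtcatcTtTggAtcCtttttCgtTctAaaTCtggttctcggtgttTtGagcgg
Cacna1c downstream exon, chr6:118741871-118741974: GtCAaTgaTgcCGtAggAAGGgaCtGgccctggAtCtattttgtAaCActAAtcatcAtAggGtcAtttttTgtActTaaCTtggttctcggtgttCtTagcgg
Cacna1d upstream exon, chr14:30171956-30172059: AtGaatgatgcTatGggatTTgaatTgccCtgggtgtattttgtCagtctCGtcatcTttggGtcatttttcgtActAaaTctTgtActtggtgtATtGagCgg
Cacna1d downstream exon, chr14:30171296-30171399: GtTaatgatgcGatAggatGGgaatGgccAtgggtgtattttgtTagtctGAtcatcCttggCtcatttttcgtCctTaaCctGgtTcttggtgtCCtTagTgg
The exons of the pair shared 69.2% of their bases in Cacna1c and 78.8% in Cacna1d. Between the genes, the upstream exons shared 86.5% and the downstream exons 79.8%.

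Cacna1c has further pairs, one of 60 bases that encodes the second segment of repeat III and one of 84 bases that encodes the third segment of repeat IV. They are shown because most of the RNA of this gene was divided between 3 transcripts that differ in them. Capitals mark the bases that differ within a pair.
Cacna1c upstream exon, chr6:118674555-118674614: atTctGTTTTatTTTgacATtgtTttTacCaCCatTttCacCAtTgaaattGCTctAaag
Cacna1c downstream exon, chr6:118674346-118674405: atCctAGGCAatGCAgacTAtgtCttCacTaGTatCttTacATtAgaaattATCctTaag
Cacna1c upstream exon, chr6:118638427-118638510: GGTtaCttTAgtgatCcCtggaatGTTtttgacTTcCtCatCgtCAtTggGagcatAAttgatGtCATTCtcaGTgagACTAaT
Cacna1c downstream exon, chr6:118637730-118637813: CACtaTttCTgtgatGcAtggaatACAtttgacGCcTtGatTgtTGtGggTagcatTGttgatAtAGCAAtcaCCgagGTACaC
Each of these pairs was identical at 58.3% of its positions.

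Cassette exons are either present or skipped. Those shown here, in capitals with 12 spliced bases on each side in lower case, are the pair of very short cassettes of Cacna1b, which lie in the linkers before the voltage-sensing segments of repeats III and IV, and the alternative pieces of Cacna1g in the linker between repeats III and IV. All lie on the minus strand, and the 21-base piece of Cacna1g extends an exon at its 3′ end.
Cacna1b 12-base cassette, chr2:24656711-24656722: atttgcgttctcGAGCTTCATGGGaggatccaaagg
Cacna1b 6-base cassette, chr2:24642853-24642858: acagagatagcgGAAACGaacaacttcatc
Cacna1g 54-base cassette, chr11:94423671-94423724: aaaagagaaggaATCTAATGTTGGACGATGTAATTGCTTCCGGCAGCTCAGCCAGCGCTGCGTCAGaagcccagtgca
Cacna1g 21-base extension, chr11:94425764-94425784: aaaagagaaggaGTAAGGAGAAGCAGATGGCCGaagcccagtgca

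The libraries held 34101499 expected counts in replicate 1 and 32543032 in replicate 2, and 14843 genes were detected. The 8 pore genes together took 42599 reads in replicate 1 and 44488 in replicate 2. Of the tissue markers, all 7 of excitatory neurons, among them the cortical gene Tbr1, and all 7 of inhibitory neurons were detected. Of 6 cerebellar markers, Pcp2 and Gabra6 were at 0 and 3 were detected, Zic1 with 14.7 TPM in replicate 1 and 5.94 TPM in replicate 2, Cbln1 with 4.57 and 5.42, and Car8 with 2.56 and 2.68. Markers of other brain tissues differed between the libraries. By counts scaled for library size, all 7 choroid plexus markers were higher in replicate 1 by at least 2-fold. Their summed levels were 559 TPM in replicate 1 and 109 TPM in replicate 2. By the same counts, all 7 thalamus and 5 of 6 hippocampus markers were also higher in replicate 1, as were 9801 of the 19484 genes tested. The median log2 ratios of the thalamus and hippocampus markers, replicate 1 over replicate 2, were 0.55 and 0.25. All 8 striatum markers were higher in replicate 2, with a median of -0.06. Summed TPM in replicates 1 and 2 was 60.9 and 47.0 for thalamus, 191 and 182 for hippocampus, and 594 and 698 for striatum. By TPM the thalamus marker Slc17a6 (13.2 and 14.0) and the hippocampus marker C1ql2 (2.21 and 2.29) were lower in replicate 1. The choroid plexus marker Clic6 fell short of 2-fold on that scale (3.69 and 1.91). On the TPM scale the median log2 ratio of all genes tested was itself -0.13. The part of these tissues in the libraries and in the pore gene levels was not tested. In bulk RNA, fewer cells of a type and less RNA per cell cannot be told apart.

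The P/Q-type gene Cacna1a and the R-type gene Cacna1e had the highest levels of the 8, and the CaV2 family held most of the pore RNA. Summed TPM of the CaV2 genes was 138 in replicate 1 and 165 in replicate 2, which was 58.2% and 58.3% of the TPM of the 8 genes. The CaV3 genes summed to 64.0 and 73.0 TPM (27.0% and 25.9%), and the CaV1 genes to 35.0 and 44.5 TPM (14.8% and 15.8%). These shares are of RNA and not of channel protein.

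Cacna1c encodes the pore of CaV1.2, the main L-type channel of cortical neurons, which heart and smooth muscle also use (ENSMUSG00000051331.15, mm10 chr6:118587240-119196418, minus strand). Its gene spans 609179 bases, longer than 98.9% of the 13083 detected protein-coding genes. It stood at 19.6 TPM in replicate 1 and 23.2 TPM in replicate 2, from 4203 and 4447 reads. Cacna1d encodes CaV1.3, an L-type channel that opens at lower voltages and supports pacemaking (ENSMUSG00000015968.17, chr14:30039939-30491455, minus strand). It stood at 15.4 TPM in replicate 1 and 21.4 TPM in replicate 2, from 2248 and 2383 reads. The values of Cacna1d overlapped those of Cacna1c, so the L-type genes did not separate on this scale.

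Cacna1a encodes the pore of the P/Q-type channel CaV2.1, which drives fast transmitter release (ENSMUSG00000034656.17, chr8:84388440-84640246, plus strand). It had 64.2 TPM in replicate 1 and 77.5 TPM in replicate 2, from 7045 and 7421 reads, and its mean lay above 89.7% of detected protein-coding genes. Cacna1b encodes the N-type channel CaV2.2, the target of omega-conotoxin GVIA (ENSMUSG00000004113.18, chr2:24603887-24763152, minus strand). It had 27.9 TPM in replicate 1 and 31.6 TPM in replicate 2, from 5256 and 5565 reads. Cacna1e encodes the R-type channel CaV2.3 (ENSMUSG00000004110.16, chr1:154390731-154884501, minus strand). It had 45.7 TPM in replicate 1 and 55.6 TPM in replicate 2, from 13303 and 14032 reads, the most reads of any of the 8. Both values of Cacna1a lay above both of Cacna1e, and both of Cacna1e above both of Cacna1b.

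Cacna1g encodes the T-type channel CaV3.1, best known from thalamic relay neurons (ENSMUSG00000020866.17, chr11:94408391-94474198, minus strand). It stood at 24.2 TPM in replicate 1 and 25.5 TPM in replicate 2, from 3163 and 3123 reads. Cacna1h encodes CaV3.2, the T-type channel of many sensory neurons (ENSMUSG00000024112.16, chr17:25374285-25433783, minus strand), and stood at 17.7 TPM in replicate 1 and 19.4 TPM in replicate 2, from 2503 and 2428 reads. Cacna1i encodes CaV3.3, the slowest T-type channel, known from the reticular thalamus and cortex (ENSMUSG00000022416.15, chr15:80287238-80398279, plus strand), and stood at 22.1 TPM in replicate 1 and 28.1 TPM in replicate 2, from 4878 and 5089 reads. The values of Cacna1i spanned those of Cacna1g, and both genes lay above Cacna1h in both animals.

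**Figure D1:**
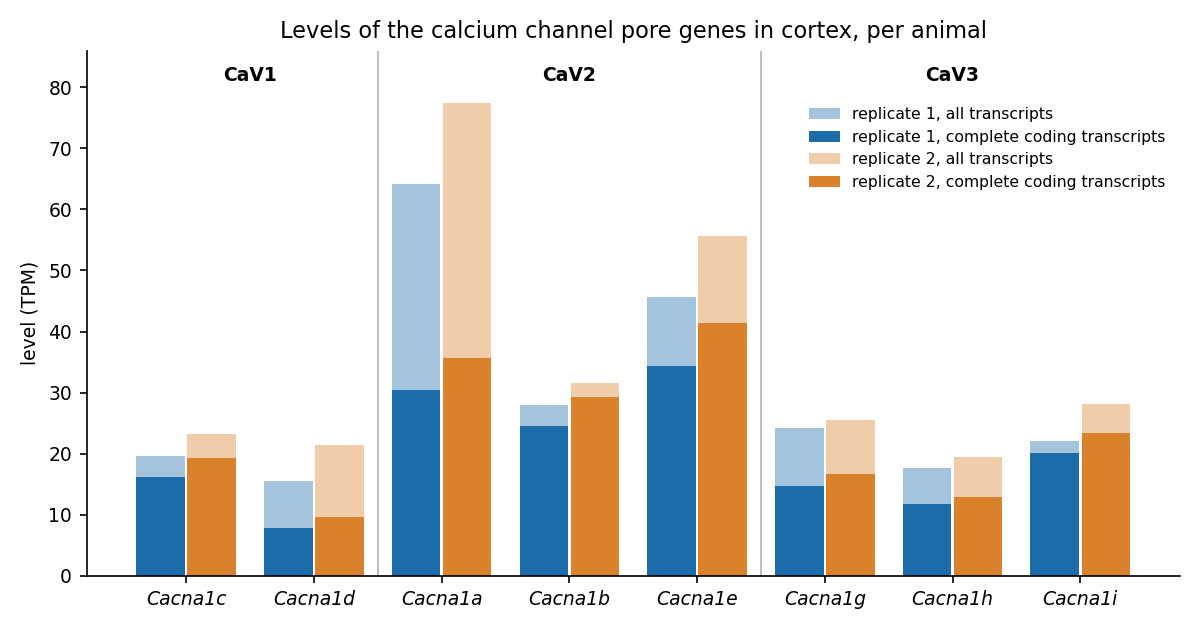
Level in TPM of each pore gene, with replicate 1 left of replicate 2; the full bar is the gene and the dark part is its transcripts with a complete annotated coding sequence. Cacna1a was highest by the full bar (64.2 and 77.5 TPM), and Cacna1e by the dark part (34.4 and 41.4 TPM).

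Ordered by the mean of the 2 animals, the levels were 70.8 ± 9.33 TPM for Cacna1a, 50.7 ± 7.01 for Cacna1e, 29.7 ± 2.59 for Cacna1b, 25.1 ± 4.31 for Cacna1i, 24.8 ± 0.912 for Cacna1g, 21.4 ± 2.52 for Cacna1c, 18.5 ± 1.17 for Cacna1h and 18.4 ± 4.21 for Cacna1d (SD, n = 2 each). Neighbours were counted as separated where both values of the higher gene lay above both values of the lower. By this rule Cacna1b and Cacna1i, Cacna1i and Cacna1g, and Cacna1h and Cacna1d did not separate, and the other 4 neighbouring pairs did. Every mean lay above 15.02 TPM, the median of the 13083 detected protein-coding genes. Members differed 3.85-fold between the highest and the lowest mean.

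The gene level counts every annotated transcript, including short ones that hold no complete coding sequence, and this decided the order at the top. Transcripts with a complete annotated coding sequence summed to 34.4 TPM in replicate 1 and 41.4 TPM in replicate 2 for Cacna1e, and to 30.4 and 35.7 TPM for Cacna1a. On that scale Cacna1e came first and overlapped Cacna1a, the reverse of the order by gene level. Cacna1d was lowest, with 7.83 TPM in replicate 1 and 9.57 TPM in replicate 2, below both values of every other member. Cacna1c, with 16.2 and 19.2 TPM, separated from Cacna1d on this scale. The families kept similar shares, at 56.2 ± 0.461% for CaV2, 28.6 ± 0.681% for CaV3 and 15.2 ± 0.220% for CaV1 (SD, n = 2).

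TPM divides by transcript length, so a short transcript with few reads can hold a large share of a gene's TPM. Complete coding transcripts of Cacna1a held 46.7 ± 0.868% of its TPM but 84.1 ± 0.302% of its reads. The largest of its short transcripts was Cacna1a-210, a processed transcript of 549 bases, with 20.1% of the TPM in replicate 1 and 22.2% in replicate 2, from 145 and 172 reads. Cacna1a-206, a retained-intron transcript, held 13.8% in replicate 1 and 7.93% in replicate 2. Cacna1g showed the same gap, with 63.0% of TPM and 94.3% of reads in complete coding transcripts, and its highest transcript by mean share, Cacna1g-212, was a processed transcript of 784 bases (14.4% in replicate 1 and 18.0% in replicate 2, from 59.4 and 70.0 reads).

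Cacna1d differed from the other 7 in that reads, too, lay outside complete coding transcripts. These held 47.8 ± 4.23% of its TPM and 59.3 ± 1.99% of its reads, against 84.1% to 99.7% of reads in the other members. Retained-intron transcripts took 18.4% of its reads in replicate 1 and 24.4% in replicate 2, and transcripts annotated for nonsense-mediated decay, the degradation of messages with an early stop, took 20.4% and 16.1%. The largest were Cacna1d-203 and Cacna1d-212, with retained introns, at 14.8% and 10.7% of TPM in replicate 1 and 17.4% and 11.2% in replicate 2, and the decay transcript Cacna1d-208 at 12.4% and 8.40%. These shares depended on the table, since the kallisto-format table, a separate deposited quantification, gave Cacna1d-203 6.07% in replicate 1 and 10.9% in replicate 2, Cacna1d-212 1.91% and 4.61%, and Cacna1d-208 19.7% and 15.3%. An exon of Chdh, on the opposite strand, overlaps Cacna1d. Chdh had 144 reads in replicate 1 and 133 in replicate 2. Exons of Gm16183 overlap Cacna1a and exons of Tpsg1 overlap Cacna1h, both on the opposite strand, with at most 1 read each.

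**Figure D2:**
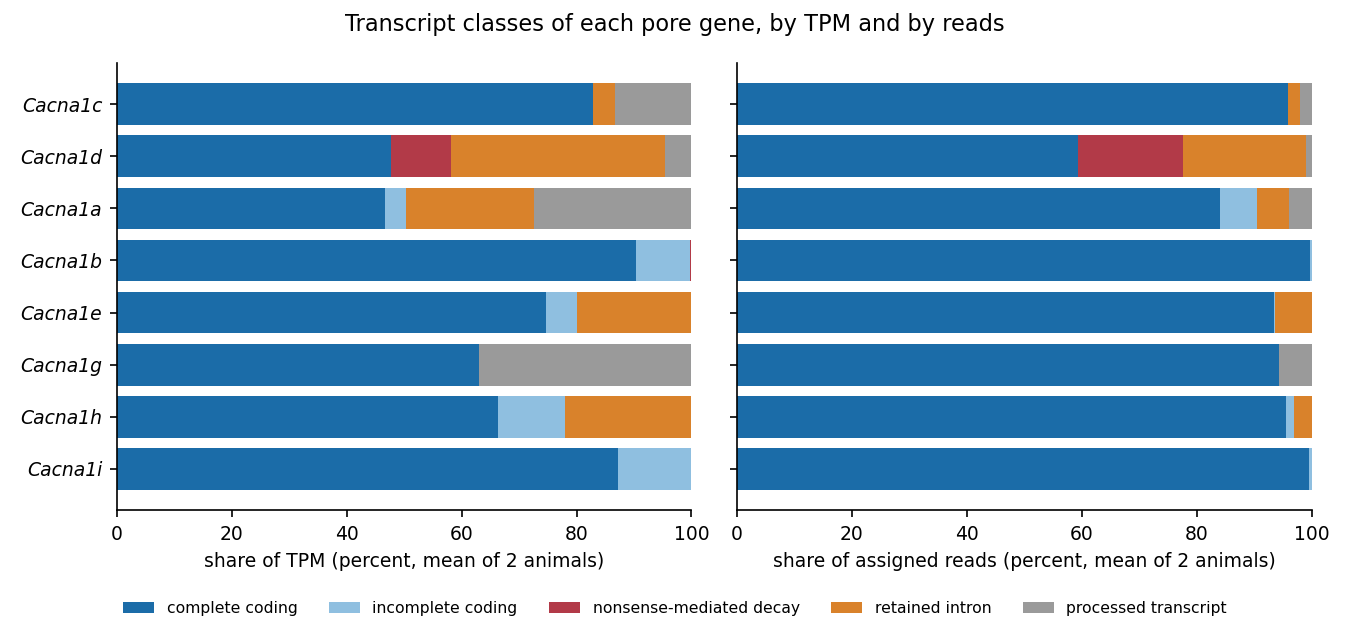
Share of each pore gene in 5 classes of annotated transcript, as percent of TPM on the left and percent of assigned reads on the right, each the mean of 2 animals. Cacna1a and Cacna1d had the smallest complete coding shares of TPM (46.7% and 47.8%), and Cacna1d the smallest share of reads (59.3%).

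How many transcripts carried a gene differed among members. Cacna1i was mainly a single transcript, with Cacna1i-202 at 91.3% in replicate 1 and 83.2% in replicate 2. The kallisto-format table gave Cacna1i-202 79.9% and 74.4%, and the decay transcript Cacna1i-205 12.4% and 10.5%. A 394-base incomplete entry, Cacna1i-203, held 8.74% and 16.8% of TPM from only 14.2 and 30.9 reads, and 0% and 15.03% in the kallisto-format table. Cacna1e-203 held 71.9% in replicate 1 and 68.9% in replicate 2, beside a retained-intron transcript, Cacna1e-206, at 12.01% and 10.02%. In the kallisto-format table Cacna1e-203 held 62.8% and 55.2%, and the complete coding transcript Cacna1e-207 held 13.1% and 14.9%. Cacna1a-201 held 47.3% and 46.0%. Cacna1h-205 held 65.8% and 66.6%, but only 43.9% and 32.2% in the kallisto-format table. Cacna1b was divided among 3 complete transcripts, Cacna1b-205 with 34.9% in replicate 1 and 36.8% in replicate 2, Cacna1b-204 with 30.1% and 37.5%, and Cacna1b-202 with 23.2% and 18.3% (21.3% and 11.3% in the kallisto-format table).

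Cacna1c, with 27 annotated transcripts of which 16 were at 0 in both animals, was likewise divided mainly among 3. Cacna1c-207 held 37.9% in replicate 1 and 37.4% in replicate 2, Cacna1c-216 held 25.5% and 29.7%, and Cacna1c-203 held 18.4% and 14.1% (15.1% and 7.24% in the kallisto-format table). Cacna1d-207 led its gene with 26.4% in replicate 1 and 35.4% in replicate 2 (25.9% and 36.4% in the kallisto-format table). Its deposited TPM intervals, 2.97 to 4.94 in replicate 1 and 5.65 to 8.48 in replicate 2, did not overlap. Cacna1d-202 held 12.5% and 0% (25.7% and 10.9% in the kallisto-format table), with TPM intervals that overlapped. In Cacna1g the coding transcript with the highest mean share, Cacna1g-211, held 8.95% in replicate 1 and 20.3% in replicate 2, but in replicate 1 it lay below Cacna1g-207, Cacna1g-209 and Cacna1g-201.

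Some Cacna1g transcript shares differed between the libraries, but the deposited TPM intervals of each Cacna1g transcript named here overlapped between them. In other genes some intervals did not overlap, among them those of Cacna1d-207, Cacna1c-216 and Cacna1e-203. These lay higher in replicate 2, where TPM was higher in general (median log2 ratio of all genes tested -0.13). Cacna1g-203 held 0% in replicate 1 and 18.6% in replicate 2, Cacna1g-209 held 16.4% and 0.350%, and Cacna1g-207 held 17.0% and 7.19%. The upper TPM bounds of Cacna1g-203 were 1.49 in replicate 1 and 5.00 in replicate 2, with both lower bounds near 1e-05. For Cacna1g-207 the intervals were 2.48 to 4.64 TPM in replicate 1 and 1.03 to 3.09 TPM in replicate 2. A difference between the animals is therefore not shown for these Cacna1g shares. Cacna1g-201 stood at 9.86% and 15.7%, and the processed transcript Cacna1g-214 at 15.4% and 14.5%. Yet the summed level of complete coding Cacna1g transcripts was 14.8 TPM in replicate 1 and 16.6 TPM in replicate 2. The kallisto-format table kept the direction of Cacna1g-203, at 0.0673% in replicate 1 and 14.4% in replicate 2. It gave nearly level shares of Cacna1g-207 (12.9% and 13.5%) and put Cacna1g-209 at 0.255% and 0.000126%. The differences of Cacna1g-211 (10.3% and 4.15%) and Cacna1g-201 (15.5% and 10.8%) had the opposite sign there.

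In Cacna1a the upstream EF-hand exon was the main form among annotated transcripts that span the pair. It was in 68.3% of the TPM in replicate 1 and 65.2% in replicate 2, and the downstream exon was in 26.9% and 29.1%. The kallisto-format table gave 68.6% and 66.8% for the upstream exon, and 27.7% and 28.2% for the downstream exon. The downstream exon is annotated here only in Cacna1a-210, the short processed transcript named above, and among complete coding transcripts, which all hold the upstream exon, its share was 0%. The share therefore rests on 145 and 172 reads given to a fragment of 549 bases, and not on full-length messages.

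In Cacna1b the annotated shares were the opposite, with 99.2% in replicate 1 and 100% in replicate 2 for the downstream exon. The upstream exon, known from pain-sensing sensory neurons of rodents, was at 0% in both animals. It is annotated here only in Cacna1b-210, a 332-base incomplete transcript, and all 5 complete coding transcripts hold the downstream exon. Its use in full-length messages was therefore not tested. The kallisto-format table put the upstream exon at 0% in replicate 1 and 9.07% in replicate 2, all of it in Cacna1b-210. Cacna1e resembled Cacna1b, with 94.6% and 92.1% for the downstream exon and 5.37% and 7.89% for the upstream exon. The upstream share of Cacna1e came from Cacna1e-208, a 331-base incomplete transcript with 11.2 reads in replicate 1 and 18.2 in replicate 2.

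In Cacna1c both exons of the 104-base pair were used. The upstream exon was in 67.8% of spanning TPM in replicate 1 and 61.6% in replicate 2, and the downstream exon in 32.2% and 38.4%. The kallisto-format table gave the downstream exon 38.8% and 43.7%, with the upstream exon still ahead in both animals. Cacna1d used mostly the downstream exon, at 75.5% in replicate 1 and 73.5% in replicate 2, against 20.5% and 15.4% for the upstream exon. Most of the upstream share of Cacna1d came from the decay transcript Cacna1d-208, and among complete coding transcripts it was 2.04% in replicate 1 and 1.78% in replicate 2. The L-type genes thus favoured opposite exons of pairs whose upstream sequences were 86.5% identical.

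The other choices of Cacna1c followed the same 3 transcripts. Cacna1c-207 holds the upstream exon of the 104-base pair, the downstream exon of the 60-base pair and the upstream exon of the 84-base pair. Among these exons, Cacna1c-203 differs from it in holding the downstream 84-base exon. Cacna1c-216 holds the downstream 104-base exon, a 75-base cassette in the linker between repeats I and II that is known from smooth muscle, the upstream 60-base exon and the downstream 84-base exon. The 75-base cassette was accordingly at 32.2% in replicate 1 and 38.4% in replicate 2, the same values as the downstream 104-base exon. The upstream 60-base exon was at 30.8% and 36.1%, and the upstream 84-base exon at 46.8% and 45.9%. A 33-base exon after the 84-base pair was in 98.6% and 97.7%. These tables assign whole annotated transcripts, so exons that occur in the same transcripts cannot be told apart by their shares.

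The same tie held in Cacna1b, where each of the 5 annotated transcripts spanning both places held exactly 1 of the short cassettes. The 12-base cassette was at 39.6% in replicate 1 and 39.7% in replicate 2, and the 6-base cassette at 60.4% and 60.3%. The kallisto-format table gave 46.5% and 47.3% for the 12-base cassette and 53.5% and 52.7% for the 6-base cassette. Since no annotated transcript holds both or neither, each share is the complement of the other by construction.

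In Cacna1g the 54-base cassette was in 53.7% of spanning TPM in replicate 1 and 68.2% in replicate 2, and the 21-base extension in 57.7% and 56.0%. A further 69-base cassette was at 47.8% and 71.2%. In the kallisto-format table the 54-base cassette was at 62.2% and 66.3%, the extension at 64.5% and 51.2%, and the 69-base cassette at 51.2% and 53.1%. The differences of the cassettes between the animals were thus smaller in that table, and that of the extension larger. Cacna1e had a 129-base cassette near its 3′ end at 4.34% in replicate 1 and 6.99% in replicate 2, which the kallisto-format table put at 17.2% and 21.1%.

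**Figure D3:**
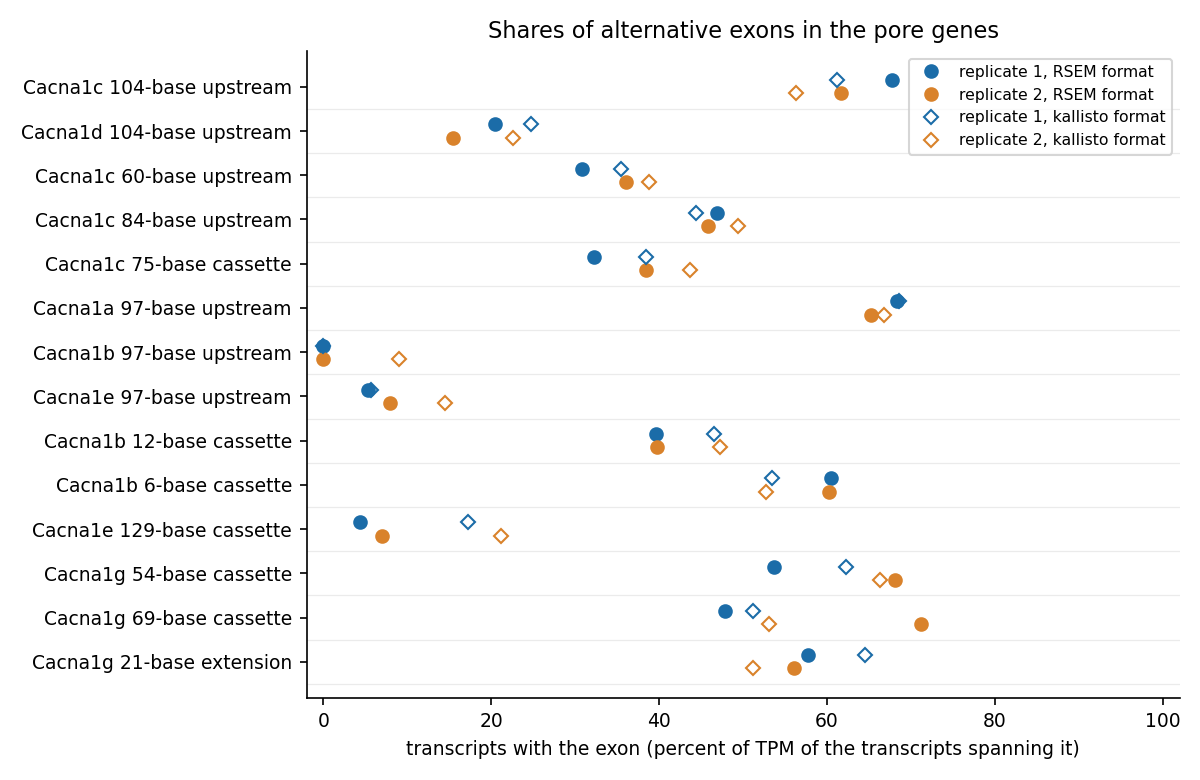
Percent of the TPM of spanning transcripts that held each alternative exon, per animal, with filled circles for the RSEM-format table and open diamonds for the kallisto-format table. The upstream exon of the 104-base pair stood at 67.8% and 61.6% in Cacna1c but 20.5% and 15.4% in Cacna1d. That of the 97-base pair stood at 68.3% and 65.2% in Cacna1a but 0% in Cacna1b in the RSEM-format table. In Cacna1b that exon is annotated only in a 332-base incomplete transcript.

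Between the animals the pore genes moved little. As log2 ratios of scaled counts, replicate 1 over replicate 2, Cacna1a was at -0.11, Cacna1b at -0.12, Cacna1c at -0.12, Cacna1d at -0.12, Cacna1e at -0.11 and Cacna1i at -0.10, and the T-type genes Cacna1g and Cacna1h at -0.02 and 0.01. The sign of Cacna1h turned, to -0.02 and -0.07, when libraries were scaled by their totals or by spike-ins. The 95% counting intervals excluded equal levels in 6 members, all lower in replicate 1, and not in Cacna1g (-0.09 to 0.06) or Cacna1h (-0.07 to 0.09). Of all 19484 genes tested, 5112 had a 95% interval that excluded equal levels. A ratio was called where a stricter counting interval, at an error rate of 0.001, excluded equal levels, and 4 of the 8 were called (Cacna1a, Cacna1b, Cacna1c and Cacna1e), against 8.76% of 19484 genes tested. Among the 3525 genes with at least 2000 reads in 1 library, as all members had, 25.6% were called, and 12.7% were called and lower in replicate 1. None of the 8 reached 2-fold, against 1.22% of genes.

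The median ratio of the 8 was -0.11 and that of all genes tested 0.00, and the median size of a ratio was 0.11 for the 8 and 0.13 for all genes. All genes include those with as few as 10 reads, so these sizes are not matched for reads. With 1 animal on each side, these intervals cover counting error only and say nothing of the spread between animals. On the TPM scale the median log2 ratio of all tested genes was itself -0.13, and all 8 members had a lower TPM in replicate 1, with a median of -0.26. Markers of astrocytes (5 of 5), oligodendrocytes (5 of 5) and microglia (5 of 5) were all higher in replicate 1, with median ratios of 0.14, 0.11 and 0.17, as were 6 of 6 mural and 4 of 5 endothelial markers, with medians of 0.33 and 0.22. Neuronal markers went both ways, with 6 of 7 markers of inhibitory neurons higher in replicate 1 (median 0.08) and 5 of 7 of excitatory neurons lower there (median -0.04). The part of these cells in the pore gene ratios was not tested.

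**Figure D4:**
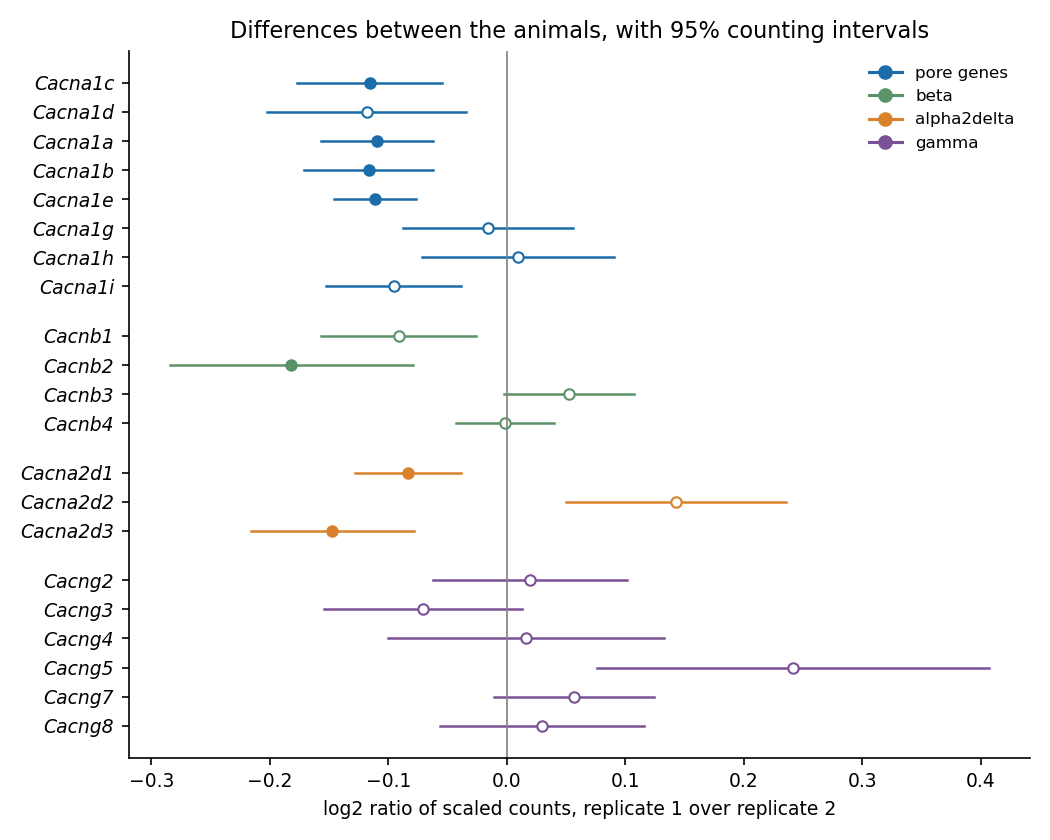
Log2 ratio of scaled counts, replicate 1 over replicate 2, with 95% counting intervals, for the pore genes and for the detected auxiliary subunit genes other than Cacna2d4; filled points mark called ratios. Of the pore genes, 4 are filled and lie between -0.12 and -0.11, and Cacna1g and Cacna1h straddle 0.

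Of 3 other pore genes of the superfamily, only Nalcn was detected. Cacna1s, the L-type pore of skeletal muscle, had 0.65 TPM in replicate 1 and 0.60 TPM in replicate 2, and Cacna1f, the L-type pore of retinal photoreceptors, had 0.03 and 0.06 TPM from 3 and 7 reads. Nalcn, a related channel that carries a sodium leak current, had 25.5 and 28.2 TPM, within the range of the 8.

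Most of the subunit genes that accompany CaV1 and CaV2 pores were detected. Beta subunits, cytoplasmic proteins that bind the linker after repeat I and bring the channel to the membrane, were detected in 4 of 4, as were the 4 alpha2delta subunits. Cacnb3 had 91.8 TPM in replicate 1 and 98.2 TPM in replicate 2, above every pore gene in both animals, followed by Cacnb4 with 56.9 and 63.9, Cacnb1 with 51.3 and 59.3, and Cacnb2 with 19.9 and 27.4. The alpha2delta subunits, extracellular proteins that include the gabapentin targets, were led by Cacna2d1 with 54.8 TPM in replicate 1 and 63.9 in replicate 2 and Cacna2d3 with 39.3 and 47.5. Cacna2d2 had 17.2 and 16.3, and Cacna2d4 had 1.69 and 1.54. Of 8 gamma genes, 6 were detected, with Cacng7 at 74.0 and 79.3 TPM, Cacng8 at 60.2 and 64.8, Cacng3 at 46.4 and 57.7, Cacng2 at 18.4 and 19.9, Cacng4 at 15.6 and 19.4, and Cacng5 at 7.41 and 6.88. These gamma proteins are better known as partners of AMPA receptors than of calcium channels.

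**Figure D5:**
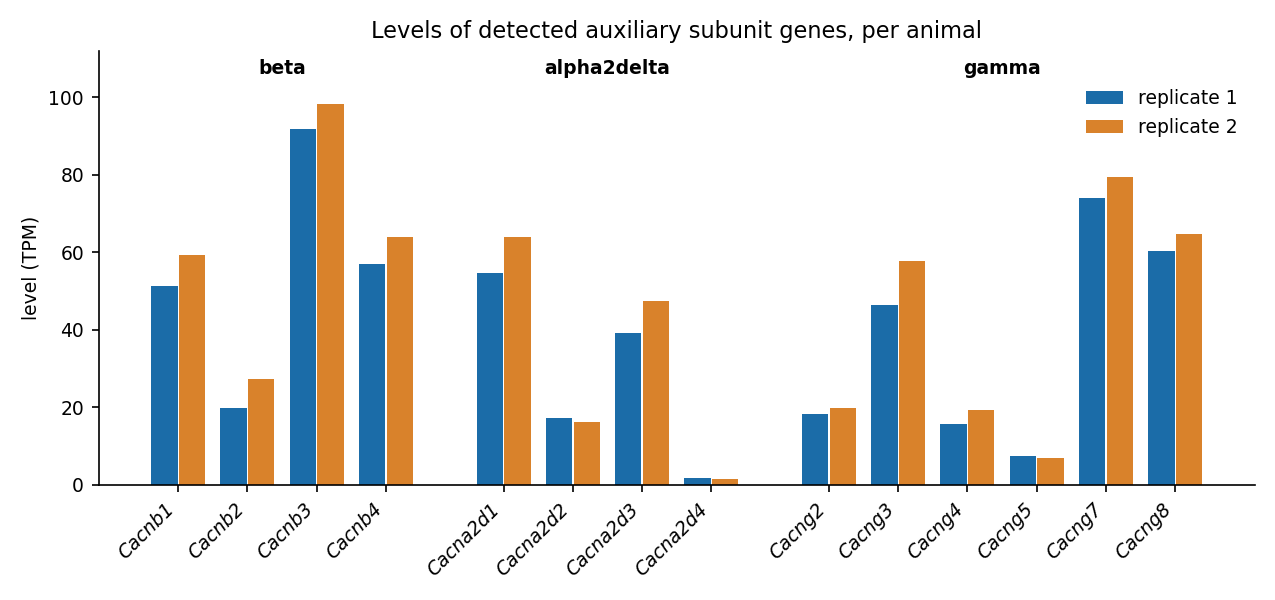
Level in TPM of the detected beta, alpha2delta and gamma subunit genes, with replicate 1 left of replicate 2. Cacnb3 was the highest (91.8 and 98.2 TPM) and Cacna2d4 the lowest (1.69 and 1.54 TPM).

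Of 16 channel partners and regulators, 12 were detected. Calm2 and Calm3, whose product calmodulin senses calcium at the carboxyl terminus of these pores, had 905 and 677 TPM in replicate 1 and 972 and 709 TPM in replicate 2. Rims1, an active-zone scaffold that ties CaV2 channels to vesicles, had 140 and 149 TPM. Of 5 calcium-activated potassium channels, which read out calcium entry, 4 were detected, with Kcnma1 at 52.8 and 66.1 TPM, Kcnn2 at 20.4 and 23.0, Kcnn3 at 10.1 and 10.7, and Kcnn1 at 8.08 and 7.45. All 6 calcium release channels were detected, led by Itpr1 with 177 and 194 TPM, Ryr2 with 48.2 and 60.8, Ryr3 with 12.3 and 17.3, and Itpr2 with 6.26 and 5.90. All 7 extrusion genes were detected, led by the calcium pumps Atp2b1 with 275 and 322 TPM and Atp2b2 with 211 and 247, the exchanger Slc8a1 with 93.4 and 100.2, and Atp2b4 with 83.1 and 90.3.

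Of the 53 genes in these 8 lists, 44 were detected and 51 had enough reads for a ratio. Ratios were called in 12, of which 10 were lower in replicate 1, among them Cacnb2 at -0.18, Ryr3 at -0.20, Ryr2 at -0.18, Cacna2d3 at -0.15 and Kcnma1 at -0.14. The other 2 were higher in replicate 1, among them Calm3 at 0.06. None reached 2-fold, and the median ratio of the 51 was -0.01. These counts are a description, beside 8.76% of all genes called and 25.6% of genes with at least 2000 reads in 1 library. Many of the 51 lay above that floor, so the 8.76% is not a background matched for reads.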

How the data were processed

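Total RNA from cortex of 2 mice of a single group was measured; the labels give each its own biosample and both a common donor entry for the strain. Per the file headers, the authors deposited RSEM-format gene and transcript tables with expected counts, TPM, FPKM and the percent each transcript takes of its gene (IsoPct), and a kallisto-format table with estimated counts and TPM. A deposited text description names mm10 and annotation M21. The aligner, strand setting and program versions were not given in the sources used here. The tables hold other deposited columns, of which the interval bounds of TPM are printed for Cacna1g transcripts and Cacna1d-207 only.

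Levels are deposited TPM. Ratios between animals are replicate 1 over replicate 2 of expected counts rounded to whole numbers, scaled by TMM library sizes (edgeR 4.0.16), with 0.5 reads added, over genes with at least 10 reads in 1 library. Intervals are Clopper-Pearson intervals of the split of reads (scipy 1.17.1). They hold counting error alone, and reads that carry no molecular identifier are not independent molecules. Members' expected counts were whole numbers in both libraries, as where no reads are divided with other genes. A transcript is complete where its annotation holds both ends of the coding sequence. An exon's share is the TPM of transcripts with it over that of all transcripts spanning its place. Sequences were cut from the GENCODE M21 transcripts.

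The members, lists and tests were chosen with earlier results of these data known. The genes named are the members, detected auxiliary subunit and other pore genes, and the 4 highest of each other list. Transcripts named have a mean share of at least 10%, a described exon, or a share that differed between the libraries or tables. The last of these were chosen after their values were seen. The undetected Cacna1s and Cacna1f were also named after their values were seen. DESeq2 1.42.0 size factors, spike-ins, library totals, other tables and other filters were tried as alternatives. Some genes that the rule takes are not reported here. A comparison of protein sequences was planned and not run.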

Additional observations from a re-analysis of the deposited data

How the results depend on the processing

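Counts of members called between the animals stayed within 1.5 times of the 4 reported under all 9 alternatives. The floor of 2000 reads was added after seeing the data. The counts were 6 with total counts or spike-ins (Cacna1d and Cacna1i added) and 5 with posterior means (Cacna1i added). They were 3 in the kallisto-format table (Cacna1c lost) and 4 otherwise, and none reached 2-fold in any. The floors of 1, 100 and 2000 reads could not drop a member, since each had at least 2000 reads in 1 library. Adding 5 reads could not change a call either, because added reads do not enter the counting interval. Those alternatives therefore did not test the count. The share of all tested genes called changed too, from 8.76% to 9.62% with total counts and 13.7% with spike-ins. It was 8.43% with posterior means, 9.58% in the kallisto-format table and 6.12% to 25.6% under the others. Of the recomputed ratios of single members, 8 left their reported 95% interval, 7 of them with spike-ins and lower, and 56 did not. The 56 include the ratios under the floors of 1 and 100 reads, which were the same as reported by construction. With spike-ins the median of all genes tested was lower as well, at -0.08 against 0.00. No called direction turned. Family shares ranged, leaving out each animal in turn, from 14.8% to 15.8% (CaV1), 58.2% to 58.3% (CaV2) and 25.9% to 27.0% (CaV3). With protein-coding transcripts only they became 14.1%, 56.5% and 29.5%. Complete coding transcripts, an alternative added after seeing the data, gave CaV2 56.2% and CaV3 28.6%, and for CaV2 posterior means gave 57.8% and kallisto-format values 58.1%. The median coding share of 79.0% was 70.4% in the kallisto-format table, and the median share of leading transcripts (42.2%) was 38.7% there and 40.6% with posterior means. For upstream exons, the kallisto-format table gave 4.53% against 0% in Cacna1b, 58.7% against 64.7% in Cacna1c, 23.7% against 17.9% in Cacna1d and 10.1% against 6.63% in Cacna1e. Posterior means gave 0.717% in Cacna1b. Complete coding transcripts gave 100% against 66.8% in Cacna1a, 1.91% in Cacna1d and 0% in Cacna1e, because other classes hold the alternative exon. The cause of the other shifts was not tested.

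With 2 libraries, leaving out an animal gives no ratio. No paired analysis was possible because there is 1 group. Detected genes of the 53 numbered 39 to 49. Exons in short transcripts rest on few reads, and shares assume that the annotation holds every isoform.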
